A study of Macaca fascicularis with 2 samples.

Results

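Oxidative phosphorylation makes most of the ATP of aerobic cells. Complexes I, III and IV of the inner mitochondrial membrane pass electrons to oxygen and pump protons, and ATP synthase, also called complex V, uses the proton gradient. Most subunits are encoded in the nucleus, and a few subunits of complex IV (cytochrome c oxidase) exist as general and tissue-restricted isoforms, several of them known from testis and sperm. The genes described here are all features whose symbol begins with NDUFA, NDUFB, NDUFC, NDUFS, NDUFV, COX4 to COX8, UQCR or ATP5. Mitochondrially encoded genes and COX4I2, which served as a cell marker, were left out. This gave 86 of 28845 features, of which 37 belong to complex I, 8 to complex III, 17 to complex IV, 14 to complex V and 10 to assembly or accessory factors caught by the same names. The files named 62 of them, and 24, all of the COX and UQCR families, were named from their gene numbers through a RefSeq table.

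Single-cell RNA was counted in testis of the cynomolgus monkey (Macaca fascicularis) by droplet sequencing of 3' ends. There were 2 libraries, 1 from the unilateral abdomen testis (UAT) of an artificial cryptorchidism model and 1 from the contralateral scrotum testis (CST). The sources used here give neither the number or age of the animals nor the time after surgery. After filters and removal of likely doublets, 11131 UAT cells and 13201 CST cells remained, from libraries of 111047299 and 197225937 UMIs (unique molecular identifiers, counted RNA molecules).

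Cells were assigned to 17 classes by marker genes that include no member of the list, and UMIs were summed per class and given as CPM, a gene's UMIs scaled to the same class total, so that 20435 CPM is 2.04% of a class's UMIs. With 1 library per position there is no replicate, so no test was made. All intervals are exact 95% intervals for counting error only, and they say nothing of differences between animals. The CST library held 197 undifferentiated and 413 differentiating spermatogonia, 297 early, 549 pachytene and 1341 late spermatocytes, 1709 round and 3121 elongating spermatids. The UAT library held 111 undifferentiated spermatogonia and fewer than 50 cells of each later germ stage, so the germ stages are described in CST. Sertoli cells (712 in UAT, 48 in CST) and Leydig cells (243 and 20) reached 50 cells in UAT alone. Spermatid RNA was present in CST cells of other classes, with the protamine gene PRM1 at 572 to 4603 CPM in every class before round spermatids and every somatic class with at least 50 cells. In the UAT classes with at least 50 cells, PRM1 stayed between 0 and 1.55 CPM. The libraries shared 50 cell barcodes.

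Not all members were captured equally. ATP5B, the catalytic beta subunit of ATP synthase, UQCRFS1, the Rieske protein of complex III, and COX6A2, a muscle isoform, stayed under 20 CPM in every class of both libraries. ATP5B peaked at 17.6 CPM in CST differentiating spermatogonia and UQCRFS1 at 14.6 CPM in late spermatocytes. Levels of different genes depend on how well each 3' end is annotated and captured, which was not tested, so comparisons below are mainly of 1 gene across classes. Of the 86 members, 81 reached 20 CPM in some CST germ stage and 51 in all 7. Many of these genes have processed copies in primate genomes, and the sources used here do not state how reads shared with such copies were counted.

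Of the testis isoforms of cytochrome c oxidase, COX6B2 became the more abundant of its pair along the CST germ stages, whereas COX7B2 and COX8C were so already in undifferentiated spermatogonia. UMIs of 3' ends are not scaled by gene length, and the share of a pair's UMIs is not a molar ratio of proteins. COX6B1 and its testis isoform COX6B2 sit on the outer face of the enzyme, where electrons arrive from cytochrome c. COX6B2 stood at 49.5 CPM in undifferentiated and 74.1 in differentiating spermatogonia, 541 in early, 1450 in pachytene and 1708 in late spermatocytes, 1304 in round and 675 in elongating spermatids. COX6B1 went from 120 CPM in undifferentiated and 234 in differentiating spermatogonia to 156, 117, 92.5, 63.8 and 25.5 CPM in the later stages in the same order. COX6B2 therefore made up 29.2% of the pair's UMIs in undifferentiated spermatogonia (24.6 to 34.2), 24.0% in differentiating spermatogonia and 77.6% in early spermatocytes (75.7 to 79.5). From pachytene on its share was 92.5%, 94.9%, 95.3% and 96.4%. Pachytene COX6B2 was 29.3-fold above undifferentiated spermatogonia (24.2 to 35.8), while the COX6B1 ratio had an interval of 0.854 to 1.12. COX6B1 was lower in round and elongating spermatids by CPM and higher with median ratio scaling, by 0.47 and 0.49 on the log2 scale.

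COX7B is encoded on the X chromosome and its testis isoform COX7B2 on an autosome. COX7B stood at 71.9 CPM in undifferentiated and 217 in differentiating spermatogonia and at 73.7 in early spermatocytes. In pachytene it was at 1.02 CPM (14 UMIs), and it stayed between 1.65 and 2.80 CPM in later stages. COX7B2 was at 210 CPM in undifferentiated spermatogonia, 131 in differentiating spermatogonia and 383 in early spermatocytes, then at 975, 1105 and 838 CPM from pachytene to round spermatids and 141 in elongating spermatids. Its share of the pair was 74.5% in undifferentiated spermatogonia (70.8 to 77.9), 37.6% in differentiating spermatogonia (35.4 to 39.9), 83.9% in early spermatocytes and between 98.8% and 99.9% afterwards. The share was thus lowest in differentiating spermatogonia, with an interval apart from those of the neighbouring stages.

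COX8 sits in the membrane part of the enzyme. Its germline isoform COX8C outnumbered COX8A already in undifferentiated spermatogonia, with 1730 against 64.0 CPM (96.4% of the pair, 95.8 to 97.0). Among all members, COX8C had the highest level in that class in CST. Its share ranged from 92.6% in differentiating spermatogonia to 99.4% in pachytene, but its level ended early. COX8C was at 1046 CPM in differentiating spermatogonia, 1516 in early, 1477 in pachytene and 718 in late spermatocytes, and at 42.3 in round and 14.1 in elongating spermatids. COX8A was at 9.53 CPM in pachytene and under 1 CPM in spermatids, so both COX8 isoforms were low there while COX6B2 was not.

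**Figure D1:**
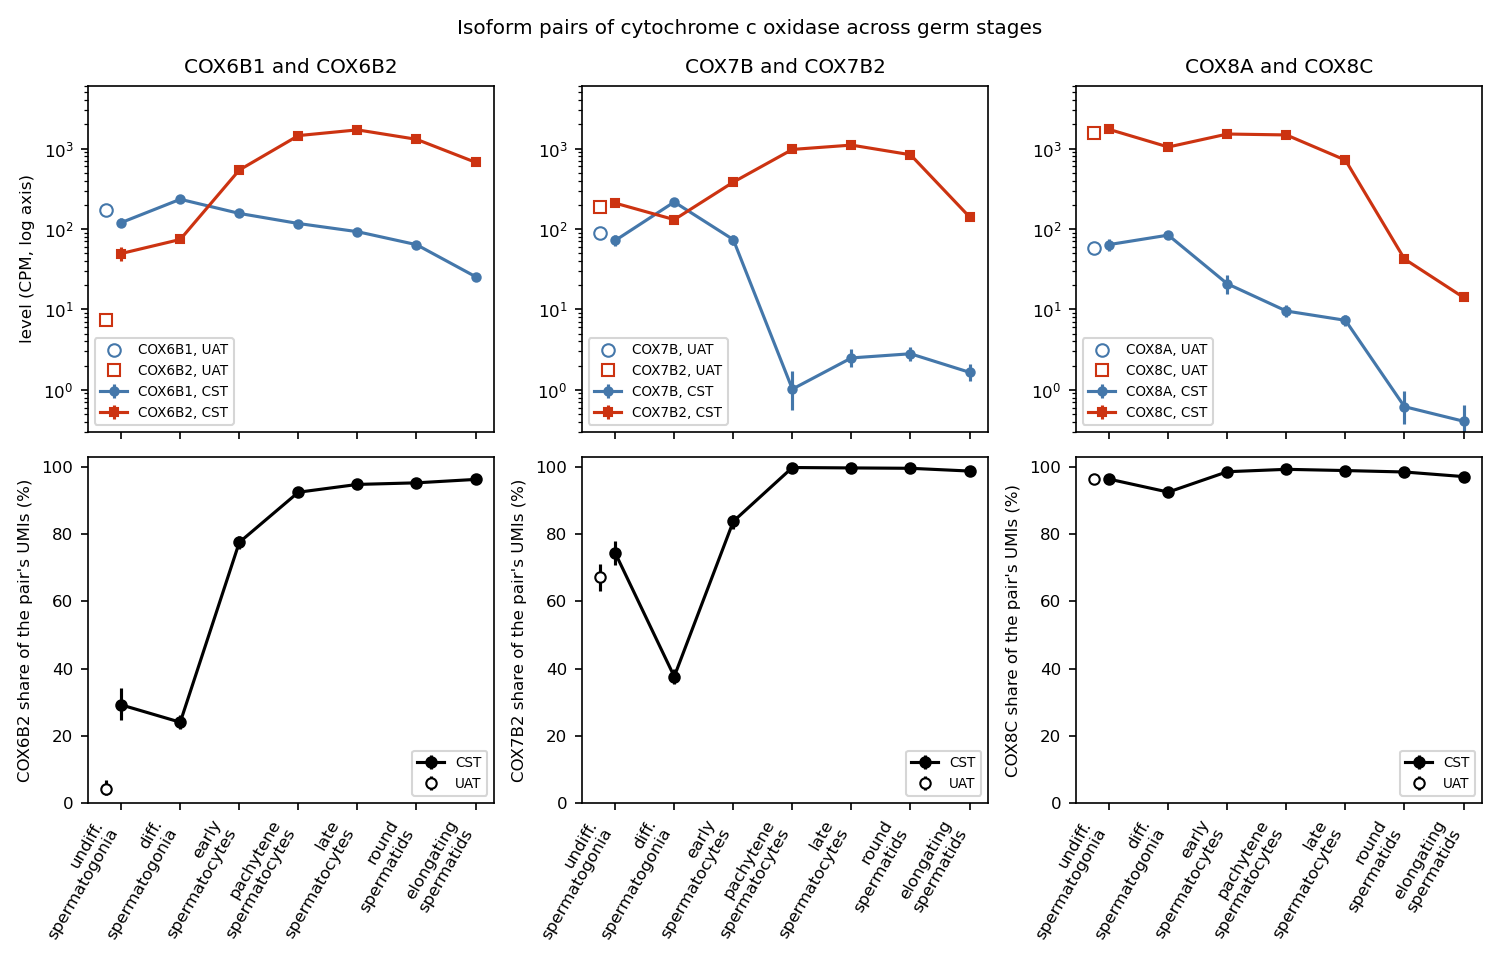
Levels in CPM on a log axis (top) and the testis isoform's share of the pair's UMIs in percent (bottom) for COX6B1 and COX6B2, COX7B and COX7B2, and COX8A and COX8C, by germ stage. Lines join CST stages, open symbols are UAT undifferentiated spermatogonia, and bars are 95% counting intervals. The COX6B2 share passes from 24.0% to 77.6% between differentiating spermatogonia and early spermatocytes, while COX8C is above 92% in every stage. Free RNA is not subtracted.

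The remaining isoform pairs behaved differently. COX7A1, the heart and muscle isoform, went from 13.1% of the COX7A pair in undifferentiated spermatogonia (10.9 to 15.5) to 0.743% in late spermatocytes, at levels of 52.7 and 24.1 CPM. The general isoform COX7A2 moved the other way and had the highest level of any member, from 350 CPM in undifferentiated spermatogonia and 465 in differentiating spermatogonia to 1435, 3407, 3218, 2267 and 863 CPM in the later stages. COX6A2 made up 3.85% of its pair in undifferentiated spermatogonia (24 UMIs) and 2.65% or less in later stages, the rest being COX6A1. NDUFA4, first described in complex I and now placed in complex IV, has an isoform NDUFA4L2 known from hypoxia. Both were under 4 CPM from pachytene on, so that NDUFA4L2's share of 74.2% in late spermatocytes rests on 95 and 33 UMIs.

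UAT undifferentiated spermatogonia carried the same COX7B2 and COX8C preference as those of CST. COX8C stood at 1546 CPM in UAT against 1730 in CST, and its share was 96.4% in both. COX7B2 stood at 185 against 210 CPM, with shares of 67.2% (63.1 to 71.1) and 74.5%. COX6B2 differed, with 7.44 CPM in UAT (15 UMIs) against 49.5 in CST, a ratio of 0.150 (0.0813 to 0.259) and a share of 4.12% (2.32 to 6.71) against 29.2%. Free spermatid RNA in the CST class, scaled on protamine and transition protein UMIs, would give 25.8 CPM of COX6B2. Subtracting it left a ratio of 0.313. The part of free RNA in the difference beyond this estimate was not tested. UAT cells of this class were also deeper, with a median of 21573 UMIs against 10217.

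UAT somatic cells had little of the testis isoforms, and COX6B2 was near 0 throughout. It had 0 UMIs in UAT stromal cells, where 3 UMIs would be 0.112 CPM, and between 0 and 0.777 CPM in all 10 UAT somatic classes. COX7B2 was between 0 and 11.5 CPM there, the latter in pericytes, and COX8C between 3.04 and 17.1 CPM, the latter in Leydig cells. In CST somatic classes, COX6B2 was at 92.2 to 258 CPM, COX7B2 at 49.0 to 163 CPM and COX8C at 30.6 to 56.8 CPM. The CST shares were 40.0% to 59.6% for COX6B2, 22.4% to 52.6% for COX7B2 and 20.6% to 31.0% for COX8C. COX6B2 and COX7B2 were highest in T and NK cells, the class with the highest PRM1 (4603 CPM) and the highest free RNA estimate (11.0% of UMIs). The estimate predicts 37.2 to 115 CPM of COX6B2 in these classes, less than was counted, and its part in the counts beyond that was not tested.

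NDUFA4L2 marked the pericytes and vascular smooth muscle of both libraries. It stood at 219 CPM in UAT and 438 CPM in CST pericytes, and at 4.48 CPM or less in the other 9 UAT somatic classes. In CST, stromal cells had 12.5 CPM and the other somatic classes 7.94 CPM or less. Its share of the pair was 76.9% in UAT pericytes (73.7 to 79.9) and 84.8% in CST pericytes (79.4 to 89.2), while NDUFA4 was at 65.8 and 78.7 CPM. The highest share among the other somatic classes was 6.90%, in CST T and NK cells from 2 UMIs. Peritubular myoid cells, the contractile cells around the tubules, had the opposite pattern, with NDUFA4 at 593 CPM in UAT and 529 in CST and NDUFA4L2 at 0.778 and 0.784. The pericyte ratio of NDUFA4L2, UAT over CST, had an interval of 0.424 to 0.594. The UAT share was 61.6% with Leiden clusters in place of the marker gate.

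Summed over the 86 members, the level in CPM was highest in pachytene spermatocytes, but the order of the stages depended on the scaling. In CST it was 20435 CPM in undifferentiated and 22076 in differentiating spermatogonia, 21994 in early, 28500 in pachytene and 26522 in late spermatocytes, 20423 in round and 8094 in elongating spermatids. With totals scaled instead by the median ratio of genes to undifferentiated spermatogonia, pachytene came to 49208, late spermatocytes to 55129, round spermatids to 56683 and elongating spermatids to 63241, so that elongating spermatids were then highest. The largest difference by complex between undifferentiated spermatogonia and pachytene in CPM was in complex IV, which went from 5936 CPM in undifferentiated spermatogonia to 11515 in pachytene, while complex I went from 7704 to 8364 and complex V from 4634 to 5319. Few genes carried it, as COX7A2 went from 350 to 3407 CPM and COX6B2 from 49.5 to 1450. The median log2 difference per member, with 10 CPM added to each level, was 0.20 in complex IV, 0.13 in complex I and 0.39 in complex V. Per cell, the members gave on average 222 UMIs in undifferentiated spermatogonia, 713 in pachytene, 388 in round and 109 in elongating spermatids. Depth differed too, with means over all genes of 10874, 25035, 18992 and 13407 UMIs per cell in the same order. The medians were 10217, 9611, 17275 and 11112 UMIs, so the pachytene mean was raised by its deepest cells. In elongating spermatids PRM1 alone stood at 146524 CPM, and with 5 spermatid genes left out of the total their sum was 12360 CPM. Mitochondrially encoded transcripts, in contrast, went from 5.52% of UMIs in undifferentiated spermatogonia and 5.01% in pachytene to 0.567% in round and 0.148% in elongating spermatids.

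**Figure D2:**
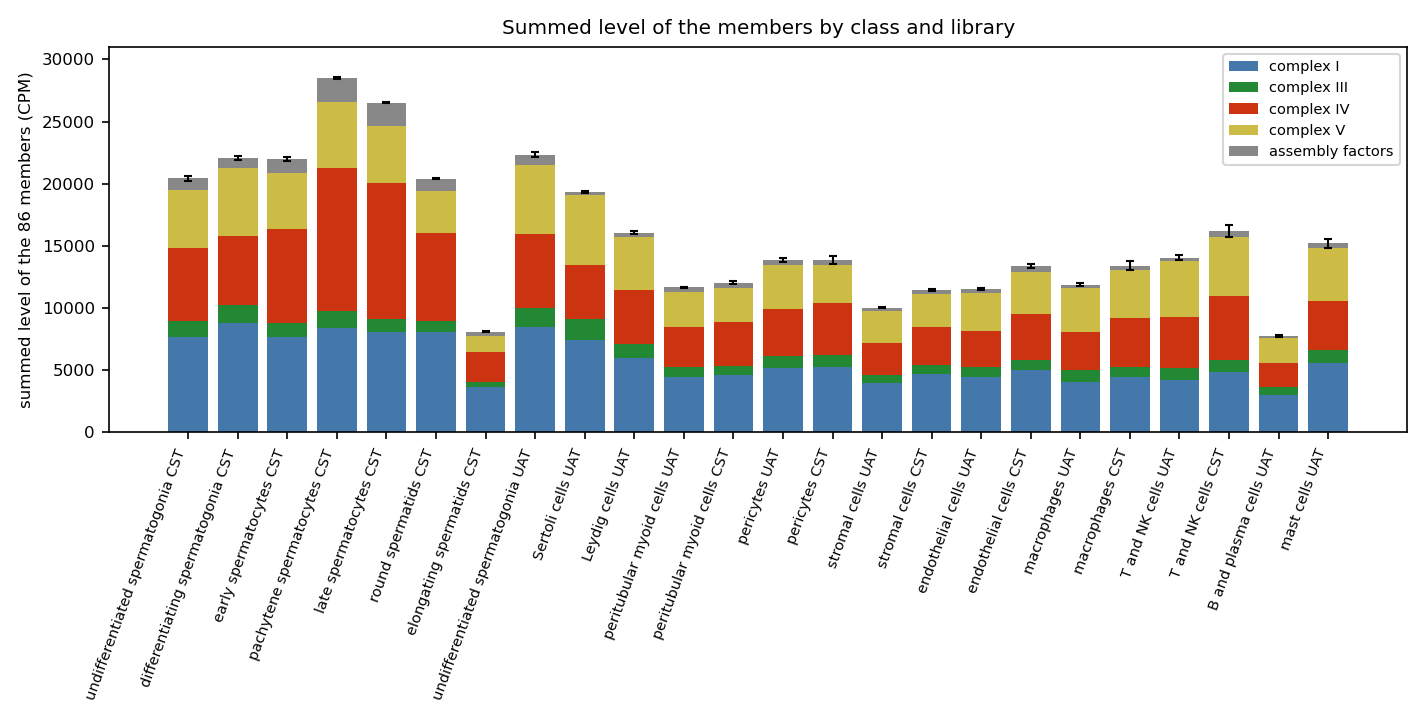
Summed level of the 86 members in CPM by class and library, stacked by complex, with 95% counting intervals on the total. CST pachytene spermatocytes reach 28500 CPM, UAT Sertoli cells 19339 CPM and UAT stromal cells 10021 CPM.

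Against undifferentiated spermatogonia, members are counted as higher or lower where the ratio of the levels in CPM passed 1.5-fold, among those with at least 20 CPM on either side. Log2 differences, in contrast, are given with 10 CPM added to each level. In differentiating spermatogonia 23 of 80 members were higher and 8 lower (all genes 27.2% and 28.6%), and in early spermatocytes 18 and 17 of 80 (33.3% and 36.6%). In pachytene 28 of 81 were higher and 23 lower (28.7% and 54.3%), and in late spermatocytes 25 and 36 of 81 (31.6% and 54.6%). Round spermatids had 20 higher and 37 lower of 81 (35.1% and 54.6%), and elongating spermatids 6 and 64 of 80 (22% and 71.9%). The median log2 difference of the members was 0.15 in pachytene and -2.06 in elongating spermatids, where that of all genes was -0.67 and -1.72.

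These counts depend on the scaling, and on a limit that moves with it. From pachytene on, scaling by the median ratio of genes lowered the undifferentiated level, and the 20 CPM limit was applied afterwards. Genes high in the later stage therefore passed more easily than genes that had gone down. The parts of scaling and limit in the changed counts were not tested. Among the genes that passed, the all-gene median was 0.35 in pachytene, 0.72 in late spermatocytes, 1.33 in round and 1.86 in elongating spermatids. The scaling itself was set on another group of genes, those with enough counts in both stages. Under it the members counted as 26 higher and 6 lower in differentiating spermatogonia (all genes 31.1% and 25.5%) and 17 and 18 in early spermatocytes (32.9% and 37%). They counted as 54 higher and 14 lower in pachytene (all genes 47.6% and 34.7%) and 45 and 16 in late spermatocytes (54.9% and 31.7%). The counts were 48 and 22 of 77 in round spermatids (64% and 26.6% of 7676 genes, in place of 10422 by CPM). In elongating spermatids they were 39 and 16 of 64 (77.7% and 17.3% of 4141 genes, in place of 9432). These sets are thus smaller than those counted by CPM above, and the counts are not of the same genes. Elongating spermatids were then the lowest stage of 21 of the 81 members (20.4% of all genes), not of 64. The direction changed under this scaling in at least 48 member and stage combinations, a count that does not take in every change of sign. Those with the highest and lowest ratios, COX6B2, COX7A2, NDUFAF3, NDUFA13, NDUFB9, NDUFA4, NDUFB11, COX7B, NDUFB7, NDUFAF4 and COX7A2L, were not among them. These members were picked for extreme ratios in the same data, so their keeping direction is no check on the scaling.

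Differentiating spermatogonia divide before meiosis. By complex, 6 of 13 members of complex V were higher and 0 lower, 3 of 7 and 0 in complex III, and 12 of 37 and 3 in complex I, where 27.2% and 28.6% of all genes were. With Leiden clusters 10 members in all were higher in place of 23. NDUFA11, a membrane-arm subunit of complex I, was 3.39-fold higher and COX7B 3.01-fold. Of the 81 members with 20 CPM in some stage, 23 had their highest CPM in this stage (19.8% of all such genes), 19 in late spermatocytes (12.4%), 14 in pachytene (7.57%) and 12 in undifferentiated spermatogonia (21.9%). With median ratio scaling these became 11, 10, 14 and 7 (all genes 15.8%, 13.6%, 9.35% and 15.1%), and 22 were highest in elongating spermatids (25.5%).

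The core subunits of complex I, which hold its redox centres, did not share 1 course. NDUFS1, which carries iron-sulphur clusters, went from 51.3 CPM in undifferentiated spermatogonia to 19.1 in pachytene and 1.08 in elongating spermatids. NDUFS7, another iron-sulphur subunit, was at 144, 321 and 96.0 CPM in the same stages. NDUFV1, which binds NADH, went from 179 to 161 and 74.9 CPM, although its elongating level was above the first with median ratio scaling. Accessory subunits also differed among themselves. NDUFA13, also known as GRIM-19, stood at 240 CPM in undifferentiated spermatogonia, between 272 and 484 in the 5 stages between, and 977 in elongating spermatids, 4.07-fold its first level (3.73 to 4.45). NDUFB9 went down from 421 CPM to 134 in late spermatocytes and up again to 391 in round and 873 in elongating spermatids (2.08-fold, 1.94 to 2.22). NDUFA13 and NDUFB9 were the 2 members with their highest CPM in elongating spermatids.

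The assembly factors showed no common course. NDUFAF3, needed for an early step of complex I assembly, stood at 105, 123, 509, 1442, 1402, 530 and 224 CPM from undifferentiated spermatogonia to elongating spermatids. Its pachytene level was 13.7-fold above the first stage (12.0 to 15.7). NDUFAF7, a methyltransferase that acts in complex I assembly, went from 33.6 CPM to 107 in pachytene and 157 in late spermatocytes. NDUFAF4, by contrast, went from 126 CPM in undifferentiated spermatogonia to 11.2 in pachytene and 0.502 in elongating spermatids. COX7A2L, which joins complexes III and IV into supercomplexes, went down at each stage from 388 to 2.20 CPM.

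**Figure D3:**
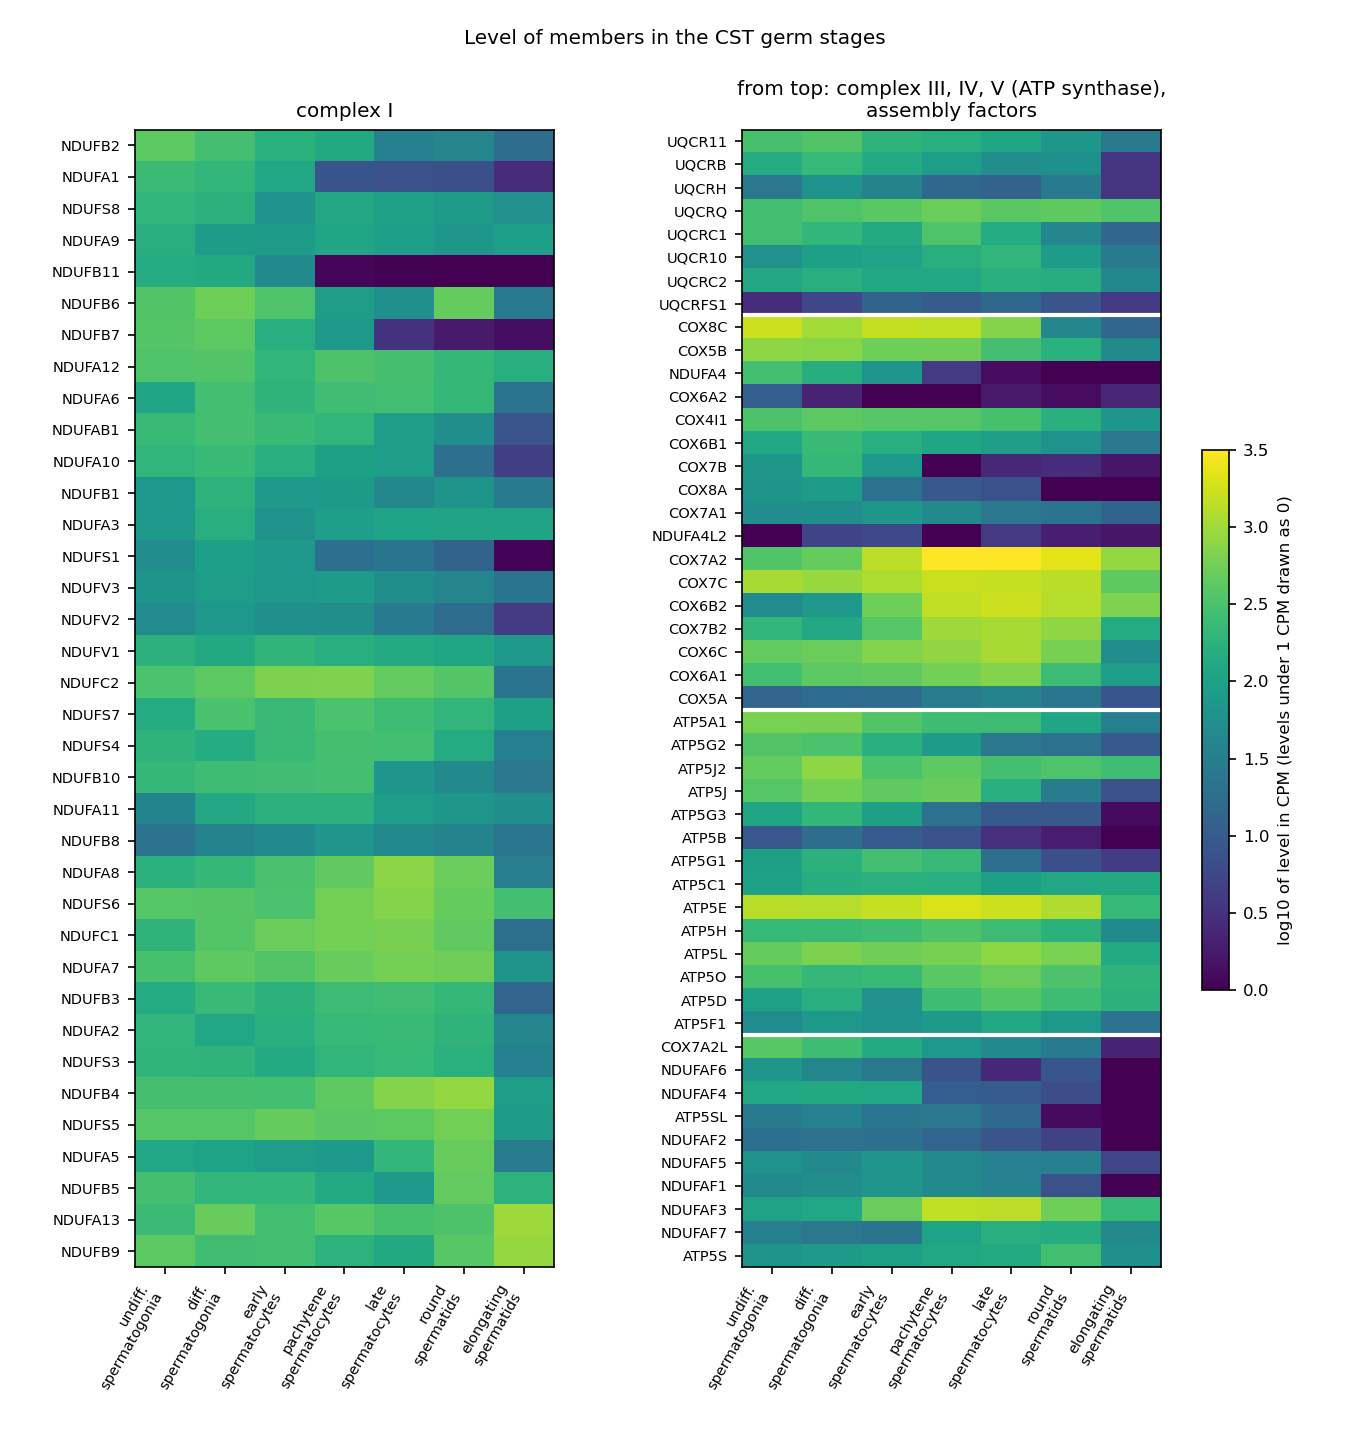
Level of 85 of the 86 members (rows, grouped by complex and ordered by stage of highest level) in the 7 CST germ stages (columns), as log10 of CPM. By CPM, elongating spermatids are the lowest stage (darkest cells) for 64 of the 81 members with 20 CPM in some stage (51.4% of all such genes), while NDUFA13 and NDUFB9 are brightest there and COX7A2 reaches 3407 CPM in pachytene spermatocytes.

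The 3 X-linked members were all under 10 CPM from pachytene on. As background, the sex chromosomes are silenced in male germ cells at this stage. NDUFA1 and NDUFB11 are membrane-arm subunits of complex I. NDUFA1 went from 244 CPM in undifferentiated spermatogonia and 122 in early spermatocytes to 8.08 in pachytene, 0.0331 times its first level (0.0268 to 0.0408). NDUFB11 went from 143 and 45.2 CPM to 1.16 CPM in pachytene (16 UMIs), and COX7B as given above to 1.02. Of all 237 X-linked genes with enough counts, 236 (99.6%) were lower past 1.5-fold in pachytene, against 54.5% of genes on other chromosomes, at medians of -2.46 and -0.67 on the log2 scale. Of these members, COX7B has an autosomal counterpart among the genes described here.

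Several autosomal members reached similarly low levels. NDUFA4 went from 287 CPM in undifferentiated spermatogonia to 69.7 in early spermatocytes, 3.93 in pachytene and 0.813 in elongating spermatids, 0.00283 times its first level (0.00194 to 0.00400). NDUFB7, an accessory subunit of complex I that faces the intermembrane space, lasted longer, at 369, 163, 77.2 and 3.21 CPM in undifferentiated spermatogonia and in early, pachytene and late spermatocytes. The 3 genes ATP5G1, ATP5G2 and ATP5G3 encode the same mature c subunit, which forms the rotor ring of ATP synthase. They stood at 98.0, 359 and 119 CPM in undifferentiated spermatogonia and at 19.3, 25.1 and 9.72 CPM in late spermatocytes. In pachytene ATP5G1 was still at 223 CPM while ATP5G2 was at 87.2 and ATP5G3 at 20.8. In elongating spermatids they were at 4.13, 9.77 and 1.27 CPM, whereas ATP5C1 and ATP5D of the F1 part were at 133 and 176 CPM, above their 101 CPM in undifferentiated spermatogonia.

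**Figure D4:**
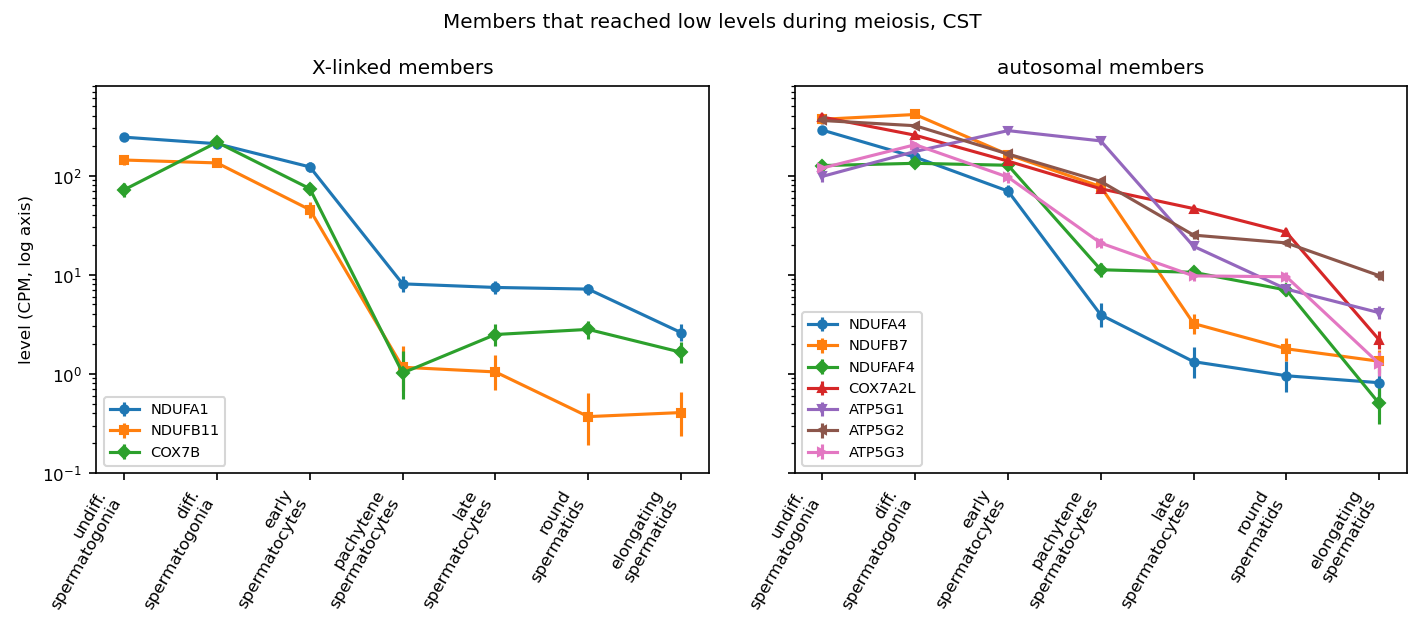
Levels in CPM on a log axis of the 3 X-linked members (left) and of 7 autosomal members (right) across the CST germ stages, with 95% counting intervals. All 3 X-linked members are under 10 CPM from pachytene on, and the ATP5G genes are at or below 25.1 CPM from late spermatocytes on.

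NDUFS1, given above, was the reference member of complex I, and those of the other complexes follow. UQCRC1, a core protein of complex III, went from 278 CPM in undifferentiated spermatogonia to 347 in pachytene, 41.3 in round and 14.3 in elongating spermatids. COX4I1, the general COX4 isoform, stood at 330, 381, 167 and 69.6 CPM in the same stages, and its spermatid levels were above the first by 0.46 and 0.61 (log2) with median ratio scaling. ATP5A1, the alpha subunit of ATP synthase, was at 616, 256, 118 and 32.5 CPM. UQCRQ, a small subunit of complex III that was not a reference member, kept between 272 and 496 CPM in all 7 stages.

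Partner genes outside the list were read from 6 lists of the pathway, for the germ stages against the same all-gene shares as above. In pachytene 2 of 3 genes of complex II were higher and 1 lower, 14 and 14 of 35 assembly factors, 3 and 11 of 19 genes of the citric acid cycle and pyruvate dehydrogenase, 2 and 12 of 20 import genes and 1 and 9 of 11 biogenesis regulators. Median ratio scaling changed these to 2 and 0 of 2, 18 and 8 of 32, 5 and 6 of 15, 7 and 7 of 19 and 2 and 5 of 8. All genes then stood at 47.6% and 34.7%. In UAT over CST undifferentiated spermatogonia, where 7.45% of all genes were higher and 12.9% lower, 5 of 35 assembly factors were higher and 1 lower. Counts were 1 and 4 of 18 for citric acid cycle genes and 2 and 2 of 19 for import genes. None of 3 complex II genes, 10 carriers and 12 regulators passed 1.5-fold there. Of 10 genes for cytochrome c and carriers, 3 were higher in pachytene and 6 lower, and all 10 were lower in elongating spermatids. Among them the general ADP/ATP carrier SLC25A5 went from 491 CPM in undifferentiated spermatogonia to 0.509 in pachytene and SLC25A6 from 292 to 1.82. The germline carrier SLC25A31 went from 189 to 496 CPM in pachytene and 3.30 in elongating spermatids. The X-linked pyruvate dehydrogenase gene PDHA1 was at 31.3 CPM in undifferentiated spermatogonia and 0.291 in pachytene, while the testis copy PDHA2 went from 23.8 to 393 and then 970 CPM in late spermatocytes. Of 34 assembly factors outside the list with enough counts in elongating spermatids, 1 was higher and 30 lower, and of 18 import genes 0 and 17. Complex II had 0 and 3 of 3, the citric acid cycle list 1 and 16 of 18 and the regulators 3 and 8 of 11. Median ratio scaling divided the undifferentiated level by 7.81 before the 20 CPM limit, so genes high in elongating spermatids passed more easily. Only 7 of the 34 assembly factors and 8 of the 18 import genes then passed, and no complex II gene. Of these, 7 and 3 were higher in elongating spermatids and 0 and 2 lower, which is a split of a selected set. For cytochrome c and carriers it was 2 higher and 5 lower of 7, and for the citric acid cycle list and the regulators 3 and 1 of 4 each. TFAM, which packs mitochondrial DNA, went from 12.6 CPM in pachytene to 256 in round and 1078 in elongating spermatids.

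Among UAT somatic cells, Sertoli cells had the highest summed level, 19339 CPM (19255 to 19423), followed by Leydig cells at 16060 and mast cells at 15215. T and NK cells (14047) and pericytes (13857) came next, with counting intervals that meet. Macrophages, peritubular myoid and endothelial cells were between 11524 and 11884 CPM, stromal cells at 10021 and B and plasma cells lowest at 7758. Sertoli cells nourish the germ cells, and Leydig cells make testosterone. Of 77 members with at least 20 CPM in one of these 10 classes, 35 were highest in Sertoli cells and 14 each in Leydig and mast cells, where 19%, 4.67% and 6.5% of all such genes were. Mitochondrial transcripts were 19.6% of UMIs in Sertoli and 14.1% in Leydig cells, against 1.54% to 7.46% elsewhere. Without cells over 20% mitochondrial UMIs the Sertoli sum was 22263 CPM. The 68 mast cells had 3523 CPM of the Leydig hormone INSL3, and the part of Leydig RNA in their values was not tested.

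NDUFB5 and NDUFB9 of complex I showed the Sertoli preference most. NDUFB5 stood at 353 CPM in Sertoli cells, 209 in Leydig cells and 206 in mast cells and between 65.1 and 146 in the other 7 classes, and NDUFB9 at 575 CPM against a median class of 214. NDUFA4 was highest in peritubular myoid cells (593 CPM) and Leydig cells (510), against a median of 211 over the classes and 65.8 in pericytes. NDUFB6 was highest in mast cells at 281 CPM, from 120 UMIs, against a median of 98.4. COX7A1 was highest relative to COX7A2 in peritubular myoid cells (37.6% of the pair) and stromal cells (34.3%), and lowest in T and NK cells (9.05%).

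The comparison of the testis positions asks whether the same cell class differed between the abdominal and the scrotal testis. It was possible in 7 classes. In undifferentiated spermatogonia 4 of 81 members were higher in UAT and 3 lower, against 7.45% and 12.9% of all genes. UQCR10, a small subunit of complex III, had 114 CPM in UAT cells against 59.3 in CST cells (ratio 1.92, 1.54 to 2.40). ATP5F1, the peripheral stalk b subunit of ATP synthase, was at 86.3 and 49.9 CPM (1.73, 1.35 to 2.22), and NDUFB1 at 124 and 72.8 CPM (1.70, 1.39 to 2.09). COX7A1 was the other higher member, at 87.3 and 52.7 CPM. Besides COX6B2, the lower ones were NDUFAF3, at 56.1 and 105 CPM (0.534, 0.422 to 0.672), and ATP5S, at 39.7 and 64.9 CPM. NDUFAF3 was abundant in CST spermatocytes, and subtracting free RNA left 0.609.

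In somatic classes the counts of higher and lower members were 3 and 7 of 78 in peritubular myoid cells (all genes 7.44% and 15.6%), 10 and 8 of 78 in pericytes (12.4% and 28.2%) and 1 and 10 of 78 in stromal cells (4.91% and 14.9%). They were 3 and 9 of 77 in endothelial cells (6.01% and 14.2%), 6 and 10 of 77 in macrophages (15.1% and 18.3%) and 5 and 18 of 78 in T and NK cells (17.7% and 28.1%). With median ratio scaling the split was 7 and 6 in myoid cells (all genes 9.8% and 12.3%) and 18 and 6 in pericytes (19.4% and 20.8%). In T and NK cells it was 7 and 14 with that scaling (20% and 26.2%) and 6 and 10 with free RNA taken out (16.3% and 26.9%). The other splits with that scaling were 5 and 3 in undifferentiated spermatogonia (8.46% and 11.8%), 2 and 8 in stromal cells (8.03% and 11.2%), 3 and 8 in endothelial cells (7.96% and 12.3%) and 6 and 10 in macrophages (17% and 15.9%). The ratio's interval left out 1 for 0 of the 5 higher and 12 of the 18 lower members in T and NK cells, for 3 of 6 and 9 of 10 in macrophages and for 8 of 10 and 7 of 8 in pericytes. In the other 4 classes it did so for each counted member. The pericyte counts also depended on the class boundary, with 5 higher and 20 lower in Leiden clusters. Median log2 ratios of the members lay between -0.20 and 0.10 over the 7 classes and those of all genes between -0.15 and -0.02, or nearer 0 in macrophages.

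UQCRB, a subunit at the quinone site of complex III, was higher in UAT in 5 of the 6 somatic classes. Myoid cells had 178 CPM in UAT against 94.5 in CST (1.88, 1.65 to 2.16), pericytes 186 against 99.6 (1.87, 1.36 to 2.61) and stromal cells 139 against 78.4 (1.77, 1.61 to 1.95). Endothelial cells had 112 and 69.5 CPM (1.60, 1.32 to 1.97) and macrophages 136 and 75.0 (1.82, 1.28 to 2.66). In T and NK cells its interval included 1 (1.18, 0.808 to 1.77). ATP5F1 was past 1.5-fold in 6 of 7 classes, all but stromal cells (1.20, 1.05 to 1.38), although its intervals in pericytes and in T and NK cells included 1 and its pericyte log2 ratio was -0.23 with Leiden clusters. In pericytes ATP5G2 (349 against 211 CPM) and COX8A (218 against 125 CPM; 1.75, 1.32 to 2.35) were also higher, and in myoid cells NDUFB8 (45.7 against 29.4 CPM). NDUFB1 was past 1.5-fold in 4 classes, with 1.70 in endothelial cells (1.42 to 2.05). COX4I1 was above 1 in all 7 classes, between 1.14 and 1.52, with an interval including 1 in macrophages.

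The lower members were led by the testis isoforms. UAT over CST ratios in somatic classes were 0.00486 or less for COX6B2, 0.110 or less for COX7B2 and 0.194 or less for COX8C. COX7A2 was at 0.492 to 0.644 in the 6 somatic classes and at 0.563 to 0.726 with free RNA subtracted. The latter left 3 of the 6 classes past 1.5-fold. NDUFAF3 was lower past 1.5-fold in 5 of 7 classes, and with free RNA subtracted in undifferentiated spermatogonia alone (0.609, other classes 0.684 to 0.986). Both were abundant in CST spermatocytes, and in T and NK cells the free RNA estimate was 212 of the 667 CPM of COX7A2 in CST. NDUFS6, an accessory subunit of complex I, was lower in myoid, stromal, endothelial and T and NK cells. Stromal cells had 65.1 CPM in UAT and 146 in CST (0.446, 0.411 to 0.484). Across the 7 classes the NDUFS6 ratio was 0.446 to 0.853, and 0.482 to 0.870 with free RNA subtracted. NDUFA8 was at 83.6 and 220.0 CPM in pericytes (0.380, 0.297 to 0.489), and NDUFAF7 at 10.7 and 36.4 CPM in macrophages (0.295, 0.166 to 0.553, 53 and 16 UMIs). With free RNA subtracted these 2 ratios were 0.391 and 0.317. NDUFS6 and NDUFA8 too were abundant in CST late spermatocytes, at 711 and 779 CPM.

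Of the 76 members compared in all 7 classes, 7 had a ratio above 1 in each of them and 14 below 1. For all genes these shares were 8.15% and 13.9%. Intervals were below 1 in each class for 3 members, COX6B2, COX8C and NDUFS6, and above 1 in each class for 0. The corresponding shares of all genes were 5% and 1.29%. PRM1 was 1021 CPM or more in the CST classes compared and at most 1.55 CPM in the UAT ones. The part of free germ RNA in these ratios beyond the values given was not tested.

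**Figure D5:**
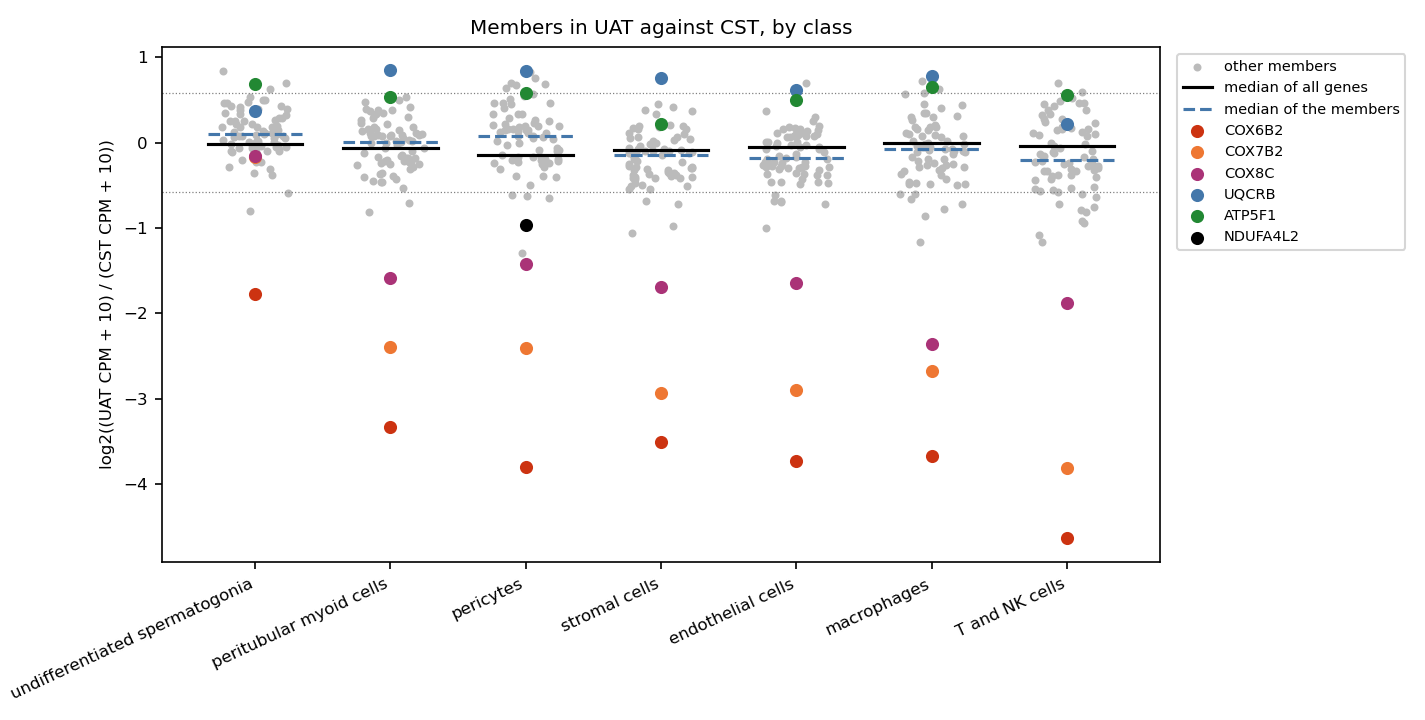
Log2 ratio of UAT over CST (10 CPM added to both) for each member with at least 20 CPM in either library, by class. Counts in the text use the ratio with nothing added. Solid bars are medians of all genes, dashed bars medians of the members and dotted lines 1.5-fold; COX6B2 is lowest in all 7 classes, and UQCRB lies past 1.5-fold in 5 somatic classes.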

How the data were processed

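The values deposited by the authors are raw UMI counts of each gene in each barcode. Per the file headers the matrices came from Cell Ranger 5.0.0. Version 3.0.1 and the mouse build mm10 stand in the submitters' processing notes, whereas the features carry macaque RefSeq symbols, and no coordinates are given. RefSeq gene numbers also gave the X-linked genes.

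A minimum of 500 detected genes kept 12352 UAT and 15001 CST barcodes. Cells whose neighbours on 30 principal components were most often simulated doublets were removed at 0.8% per 1000 barcodes (1221 and 1800). Each cell scored the mean z-score, limited to 6, of each class's markers in log-scaled counts. It joined the top class at a score of 0.8 or more and a margin of 0.3 over the next, values set after the files were seen, and 1816 UAT and 3000 CST cells joined none. UMIs were summed per class of at least 50 cells. Intervals are exact Poisson for levels, Clopper-Pearson for shares and conditional binomial for ratios, at 95%. A count of 0 allows 3. UMIs carry molecular identifiers, so they are molecules, but cells are not replicates. Free RNA was scaled on PRM1, PRM2 and TNP1 in CST and on INSL3 in UAT, up to 50% of a class.

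Members compared had 20 CPM or more on either side, after scaling where levels were scaled. Named were the isoform pairs, the 5 members highest and 5 lowest in elongating and the 3 in pachytene over undifferentiated spermatogonia by the interval bound nearest 1, up to 3 each way per class between positions, the 5 with the largest highest-over-median ratio in UAT somatic classes, and a reference member per complex. NDUFS7, NDUFV1, NDUFAF7, UQCRQ, ATP5C1, ATP5D, NDUFA11, NDUFS6, the ATP5G genes, NDUFB9 in somatic cells and the partner genes outside the list were chosen after their values were seen, as were COX4I1 between positions and the X-linked members as a group. Values of 1 member are not reported here on their own, though it enters the sums and counts. The members and lists were chosen with earlier results of these data known. The interval and count steps were tested on simulated data. Python 3.11.15, numpy 2.4.6, scipy 1.17.1, pandas 2.3.3 and leidenalg 0.10.2 were used. Classes were also rebuilt from Leiden clusters, and other filters, scalings and thresholds were tried.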

Additional observations from a re-analysis of the deposited data

How the results depend on the processing

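No paired analysis was possible because each position had 1 library. The causes of the changes below were not tested, and with median ratio scaling the 20 CPM limit was applied to the scaled levels. With Leiden clusters in place of the gate, which formed no early spermatocyte class and so gave no value there, members higher in differentiating spermatogonia numbered 10, pericytes had 5 higher and 20 lower in UAT, and T and NK cells 3 higher. The share of COX6B2 in pachytene was then 92.1%, that of COX7B2 99.6%, that of COX8C in undifferentiated spermatogonia 94.3% in CST and 95.2% in UAT, and that of NDUFA4L2 in UAT pericytes 61.6%. The summed levels were 22526 CPM in CST undifferentiated spermatogonia, 28152 in pachytene, 7927 in elongating spermatids and 19169 in UAT Sertoli cells. At a 2-fold threshold, differentiating spermatogonia had 7 higher and 0 lower, early spermatocytes 7 and 9, pachytene 17 higher and round spermatids 11 higher. UAT over CST then gave 0 higher and 1 lower in undifferentiated spermatogonia, 0 and 3 in myoid cells, 1 and 4 in pericytes, 0 and 5 in stromal cells, 0 and 4 in endothelial cells, 2 and 5 in macrophages and 1 and 6 in T and NK cells. Median ratio scaling gave 54 higher and 14 lower in pachytene, 45 and 16 in late spermatocytes, 48 and 22 in round and 39 and 16 in elongating spermatids, and higher counts of 7 in myoid cells, 18 in pericytes and 2 in stromal cells. The summed level on this scale, an alternative chosen after seeing the data, was 49208 in pachytene and 63241 in elongating spermatids. Leaving 5 spermatid genes out of the totals gave 12 higher in elongating spermatids and a sum of 12360 CPM. With the mean of single-cell CPM, 9 members were higher in UAT undifferentiated spermatogonia and pericytes had 5 higher and 17 lower, with sums of 27831 CPM in pachytene, 8375 in elongating spermatids and 20825 in Sertoli cells. Without doublet removal, higher counts were 1 in myoid cells, 2 in macrophages and 3 in T and NK cells, the COX7B2 share in pachytene 99.7%, the NDUFA4L2 share 67.4%, and the sums 20005 CPM in undifferentiated spermatogonia, 28233 in pachytene, 8465 in elongating spermatids and 18882 in Sertoli cells. Without the filter on low levels 5 members were higher in myoid cells. With free RNA subtracted, T and NK cells had 10 lower, and the NDUFA4L2 share was 80.0%, as it was (80.0%) with the stricter gate, which gave sums of 19853 CPM in undifferentiated and 7937 in elongating cells. A minimum of 200 genes gave 20646 CPM in undifferentiated spermatogonia, and 1000 genes gave 20122 CPM there, 8163 in elongating spermatids and 19144 in Sertoli cells. Leaving out cells over 20% mitochondrial UMIs gave 22263 CPM in Sertoli cells. Depth limits the small classes most, such as the 127 T and NK cells of CST.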
